A study of Mus musculus with 6 samples.

Results

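Pericentral genes are those that hepatocytes around the central vein of the liver lobule express more than hepatocytes near the portal tract. A set of 9 such genes, *Glul*, *Cyp2e1*, *Cyp1a2*, *Slc1a2*, *Oat*, *Rgn*, *Lect2*, *Axin2* and *Tbx3*, were followed in livers that lack the insulin receptor (LIRKO, for Liver Insulin Receptor Knockout) and in livers of Flox littermates. They were taken by gene symbol from the platform annotation, and every probe set annotated to 1 of them alone was kept. All 9 genes were on the array, by 11 probe sets of 12422 tested, with 2 probe sets each for *Glul* and *Oat* and 1 for each other gene. A probe set is a group of short oligonucleotides meant to read 1 transcript, though some read several.

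Flox mice carried floxed insulin receptor alleles (IR flox/flox) without Cre, and LIRKO mice carried the same alleles with albumin:CRE, in which the albumin promoter, active in hepatocytes, drives the recombinase. Both groups were male, non-fasted, chow-fed, 2 to 3 months old by the labels, and on a mixed background of C57BL/6, FVB, DBA and a further inbred strain. Each of the 6 arrays (3 Flox and 3 LIRKO, Affymetrix MG-U74A-v2) held liver RNA of 2 to 3 mice pooled, so p-values measure the spread between pools. Values are log2 after the authors' robust multichip averaging (RMA), the number of arrays limits the precision, and levels of different probe sets are not ranked against each other because oligonucleotides differ in brightness.

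Blood flows through the lobule from the portal tract to the central vein, and hepatocytes divide their work along this path, which is called zonation. Wnt ligands from endothelial cells of the central vein activate β-catenin in the adjacent hepatocytes, and β-catenin with TCF/LEF factors at the DNA turns on much of the pericentral programme. Pericentral hepatocytes make glutamine from ammonia and oxidize drugs and other foreign compounds with cytochromes P450, whereas periportal hepatocytes carry out more of urea synthesis and gluconeogenesis.

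Where RefSeq promoter sequence was given, it is shown for *Cyp1a2* and *Lect2*, the genes with the lowest LIRKO values relative to Flox, and for *Cyp2e1*, which was near its Flox level. The bases run 5′ to 3′ on the gene's strand and end just before the annotated start, or for *Lect2* before the annotated span (GRCm38.p6). They lie at chr9:57683656-57683905 on the minus strand for *Cyp1a2*, at chr13:56548560-56548788 on the minus strand for *Lect2* and at chr7:140763569-140763818 on the plus strand for *Cyp2e1*. Capitals mark the letters of a TCF/LEF motif, CTTTGAT or CTTTGAA on either strand, and 21 bases of the *Lect2* window were left out because they lie inside its annotated span.
Cyp1a2: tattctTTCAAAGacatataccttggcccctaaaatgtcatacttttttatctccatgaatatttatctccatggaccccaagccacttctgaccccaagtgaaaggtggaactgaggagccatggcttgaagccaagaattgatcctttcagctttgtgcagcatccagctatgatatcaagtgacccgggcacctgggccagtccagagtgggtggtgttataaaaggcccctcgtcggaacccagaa
Lect2: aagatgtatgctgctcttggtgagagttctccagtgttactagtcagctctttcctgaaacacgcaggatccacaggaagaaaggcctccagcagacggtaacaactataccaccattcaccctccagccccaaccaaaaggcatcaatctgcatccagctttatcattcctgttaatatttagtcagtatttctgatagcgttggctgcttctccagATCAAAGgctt
Cyp2e1: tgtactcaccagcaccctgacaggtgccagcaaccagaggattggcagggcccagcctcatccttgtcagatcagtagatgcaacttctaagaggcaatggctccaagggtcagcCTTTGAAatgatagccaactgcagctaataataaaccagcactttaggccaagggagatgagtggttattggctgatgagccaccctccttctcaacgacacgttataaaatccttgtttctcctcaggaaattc

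Of the 9 genes, 7 had a window of 250 bases before a start given by RefSeq, and *Rgn* and *Tbx3* had none. The windows of *Slc1a2* and *Axin2* lie wholly inside the gene's annotated span, before a start within it. The TCF/LEF letters were in 4 of the 7, those of *Slc1a2*, *Cyp2e1*, *Cyp1a2* and *Lect2*, and in 7.48% of all 32851 windows of the same length. The match began 244 bases before the start in *Cyp1a2*, 135 in *Cyp2e1* and, counted with the 21 bases left out, 32 in *Lect2*. The letters GTTAAT, part of the site of the hepatocyte factor HNF1, were in the *Lect2* window alone among the 7 and in 6.43% of all windows. The core of the aryl hydrocarbon receptor (AhR) element, GCGTG, was likewise in the *Lect2* window alone among the 7, and in 28.2% of all windows, so the *Cyp1a2* window held no such letters. A match of letters does not show that a factor binds there.

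Before the results, the arrays themselves differed in a way that touches most of these genes. On LIRKO 2 and LIRKO 3, bright probe sets read lower and dim ones higher than on the Flox arrays. Of 10 equal bins of probe sets by Flox level, the brightest had a median difference from the Flox mean of -1.09 on LIRKO 2 and -0.89 on LIRKO 3, against -0.01 on LIRKO 1, and in the lowest of these bins it was 0.23, 0.15 and -0.03. The values of the 11 probe sets are therefore also given on LIRKO 1 alone and beside the 200 probe sets nearest in Flox level, a comparison added after the data were seen. *Insr*, the targeted gene, read 5.45, 5.22 and 5.38 on the Flox arrays and 5.37, 5.99 and 6.06 on LIRKO 1, 2 and 3, and was not lower in LIRKO (adjusted p = 0.245 by limma). Where its probe set lies relative to the deleted exon is unknown here, so this value checks nothing about the labels.

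None of the 11 probe sets passed an adjusted p of 0.05 by limma over all 12422 probe sets, of which 0.129% did (0.0725% higher and 0.0564% lower). At an unadjusted p under 0.05, 4 of the 11 were lower in LIRKO and 0 were higher, against 20.9% of all probe sets in either direction, and the methods' t-test gave 0 of 11, against 5.86% of all. The 3 LIRKO arrays lay below all 3 Flox arrays for 3 of the 11, those of *Cyp1a2*, *Lect2* and *Glul* 94852_at, and above them for 0, where 14.9% of all probe sets lay below and 9.84% above. The median difference, LIRKO minus Flox, was -0.08 over the 11 and 0.01 over all probe sets. The 3 LIRKO arrays had medians of -0.06, -0.32 and -0.12 over the 11, in the order LIRKO 1, 2 and 3.

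**Figure D1:**
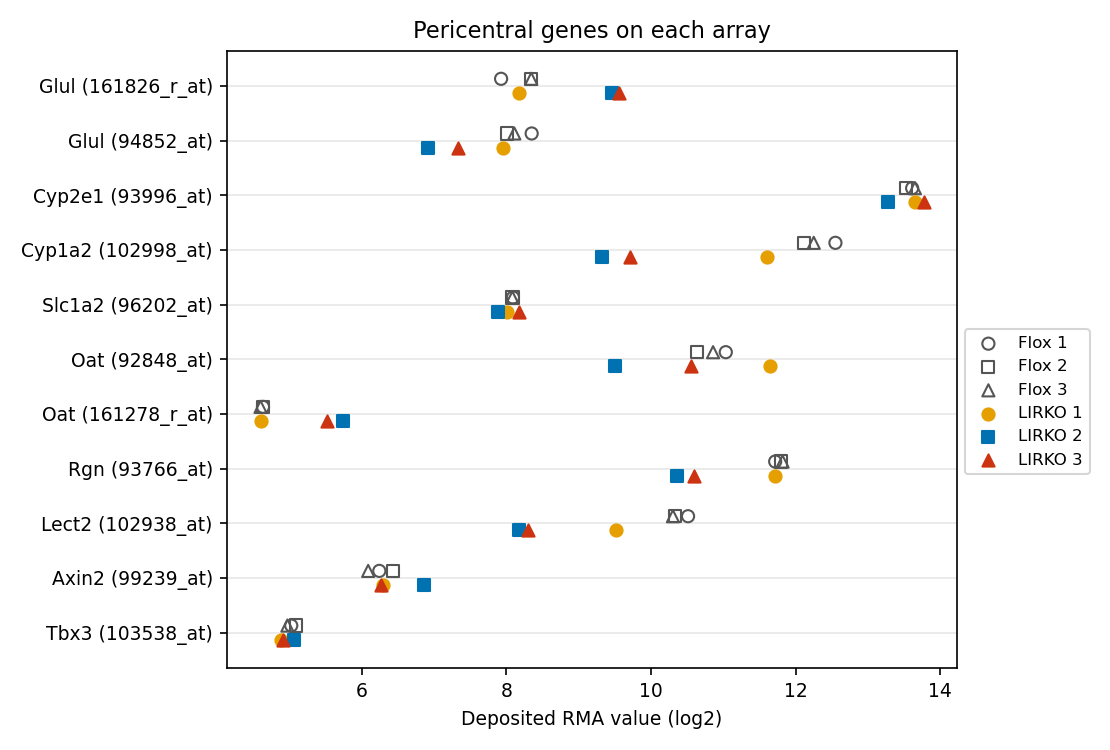
Deposited log2 RMA value (x axis) of each of the 11 probe sets of the 9 pericentral genes (y axis) on the 3 Flox arrays (open symbols) and the 3 LIRKO arrays (filled symbols). For *Cyp1a2* and *Lect2* every LIRKO array lies below every Flox array, and for most genes LIRKO 1 lies nearer to the Flox arrays than LIRKO 2 and LIRKO 3 do.

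*Lect2*, which encodes a secreted hepatokine and is a β-catenin target in the liver, had the smallest p of the 11. It read 10.51, 10.34 and 10.31 on Flox 1, 2 and 3 and 9.52, 8.18 and 8.30 on LIRKO 1, 2 and 3. All LIRKO arrays were below all Flox arrays, with LIRKO 1 the nearest. Flox averaged 10.39 ± 0.11 (SD, n = 3), and LIRKO averaged 8.67 ± 0.74 (SD, n = 3). The difference was -1.72 (SE 0.347, 95% interval -2.54 to -0.89, adjusted p = 0.237 by limma), a level 3.29-fold lower. On LIRKO 1 alone it was -0.86, or 1.82-fold lower, and passed the threshold (adjusted p = 0.0256 by limma, with the spread taken from the Flox arrays), as did 0.725% of all probe sets. Beyond the 200 probe sets of like level, *Lect2* was lower by a similar amount on the 3 arrays, with values of -0.86, -1.08 and -1.19 on LIRKO 1, 2 and 3.

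*Cyp1a2*, a cytochrome P450 that metabolizes caffeine and aromatic amines and is induced through AhR, had the lowest difference of the 11. It read 12.55, 12.11 and 12.25 on the Flox arrays and 11.60, 9.32 and 9.71 on LIRKO 1, 2 and 3. The groups did not overlap, and LIRKO 2 and LIRKO 3 were far below LIRKO 1. The difference was -2.09 (SE 0.557, 95% interval -3.42 to -0.77, adjusted p = 0.237 by limma), which is 4.27-fold, from a Flox mean of 12.31 ± 0.22 (SD, n = 3) to a LIRKO mean of 10.21 ± 1.22 (SD, n = 3). LIRKO 1 alone was 0.70 below the Flox mean (-0.70, or 1.63-fold) and below every Flox array, without passing the threshold. Beyond probe sets of like level the values were -0.70, -1.45 and -1.27. In whole liver, fewer pericentral hepatocytes and less RNA per cell cannot be told apart for this or any other gene here.

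*Cyp2e1*, a cytochrome P450 that oxidizes ethanol and small solvents, was near its Flox level. It read 13.61, 13.53 and 13.65 on the Flox arrays and 13.66, 13.28 and 13.77 on LIRKO 1, 2 and 3. LIRKO 2 was below and the other LIRKO arrays slightly above all Flox arrays. The difference was -0.03 (SE 0.154, 95% interval -0.39 to 0.34, adjusted p = 0.916 by limma). The 200 probe sets nearest in level had medians of -0.01, -1.41 and -1.17 on LIRKO 1, 2 and 3. *Cyp2e1* lay above them by 0.07, 1.10 and 1.34. With the 40 nearest probe sets in place of 200 these values were 0.13, 0.65 and 1.15. The Flox mean of *Cyp2e1*, 13.60, was at percentile 99.9 of all probe sets, so most of these neighbours were dimmer. Flox levels of the 200 ran from 11.6 to 14.3 and of the 40 from 12.8 to 14.3, so they match its level only loosely. The sign of the difference turned when the arrays were scaled again, to 0.48 after quantile normalization (adjusted p = 0.226 by limma) and 1.12 after cyclic loess (adjusted p = 0.213 by limma).

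**Figure D2:**
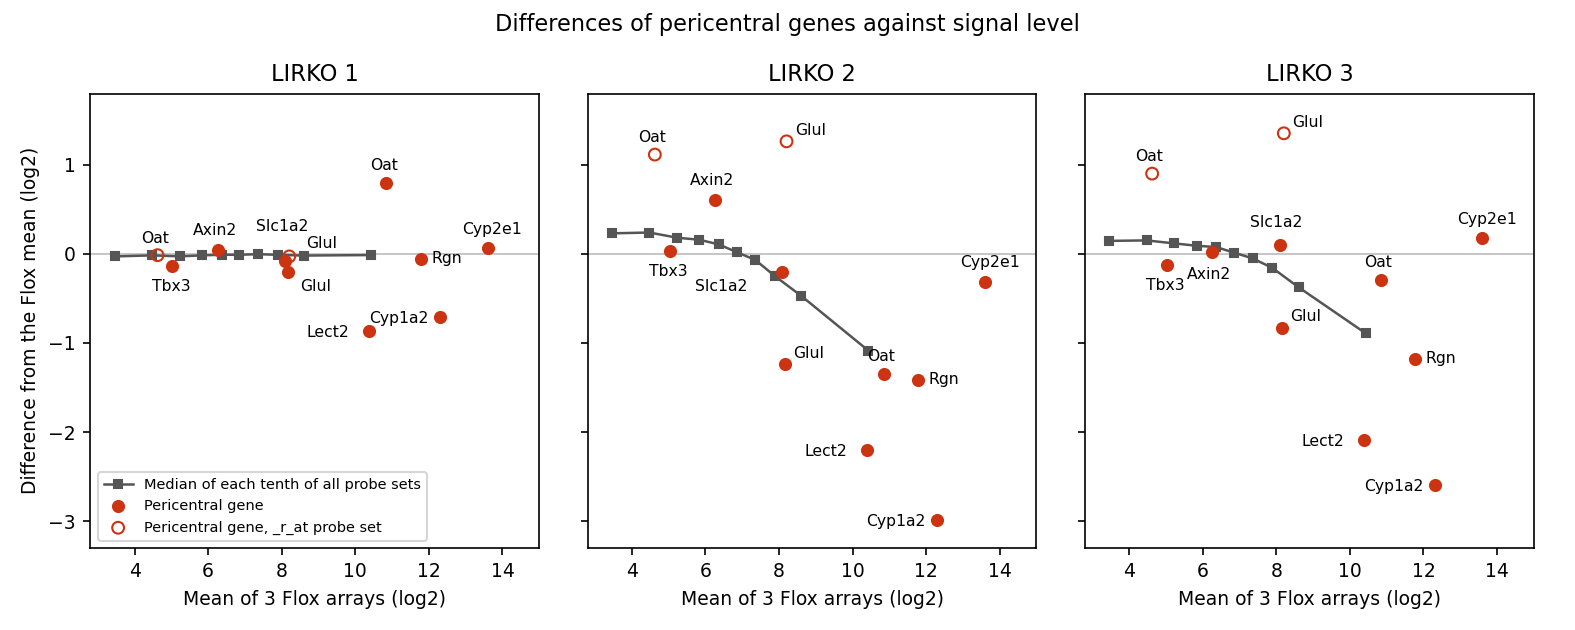
Difference of each pericentral probe set from the mean of 3 Flox arrays (y axis, log2) against that mean (x axis, log2), on LIRKO 1, LIRKO 2 and LIRKO 3, with open circles for _r_at probe sets and squares for the medians of 10 equal bins of all 12422 probe sets. On LIRKO 2 and LIRKO 3 the line falls to -1.09 and -0.89 in the brightest bin, whose mean Flox level is 10.43. *Lect2*, at 10.385, lies below it. The brighter probe set of *Oat*, *Rgn* (11.78), *Cyp1a2* (12.31) and *Cyp2e1* (13.60) lie beyond the end of the line, which therefore does not give the shift at their levels. Against the 200 probe sets nearest in level, *Cyp1a2* was lower on both arrays, and *Oat* by this probe set, *Rgn* and *Cyp2e1* were higher.

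*Glul* encodes glutamine synthetase, which joins ammonia to glutamate and is confined to the hepatocytes next to the central vein. Its 2 probe sets differed in direction. Probe set 94852_at read 8.35, 8.01 and 8.11 on the Flox arrays and 7.95, 6.92 and 7.33 on LIRKO 1, 2 and 3, so that the groups did not overlap. The difference was -0.76 (SE 0.262, 95% interval -1.38 to -0.14, adjusted p = 0.237 by limma), and -0.21 on LIRKO 1 alone. Beyond probe sets of like level it was -0.18, -0.83 and -0.51 on LIRKO 1, 2 and 3. Probe set 161826_r_at read 7.93, 8.34 and 8.35 on the Flox arrays and 8.18, 9.47 and 9.56 on LIRKO 1, 2 and 3, with LIRKO 1 inside the Flox range and the other LIRKO arrays above it. Its difference was 0.86 (SE 0.371, 95% interval -0.02 to 1.74, adjusted p = 0.240 by limma), and -0.03 on LIRKO 1 alone. Beyond probe sets of like level it was -0.0019, 1.63 and 1.68. The mean of the 2 probe sets differed by 0.05, so the array gives *Glul* no single direction.

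The suffix _r_at marks a probe set whose oligonucleotides were chosen under relaxed rules. Over all 901 such probe sets the median difference was 0.26, with 78.5% above 0, against -0.01 and 49.2% over the 11521 others. Among probe sets with a Flox level of 7.5 to 9, near that of *Glul*, the median was 0.29 for 172 of this suffix and -0.19 for 2467 others. On LIRKO 1 alone the median of all with the suffix was -0.04. Its part in the *Glul* and *Oat* values was not tested.

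*Oat* encodes ornithine aminotransferase, a mitochondrial enzyme between ornithine and glutamate. Probe set 92848_at read 11.04, 10.64 and 10.86 on the Flox arrays and 11.64, 9.50 and 10.55 on LIRKO 1, 2 and 3. LIRKO 1 was above all Flox arrays and LIRKO 2 and LIRKO 3 below them. The difference was -0.28 (SE 0.492, 95% interval -1.45 to 0.89, adjusted p = 0.728 by limma), and 0.80 on LIRKO 1 alone (adjusted p = 0.0840 by limma, with the spread taken from the Flox arrays). Beyond probe sets of like level it was higher on each LIRKO array, by 0.78, 0.06 and 0.87, and the difference turned to 0.28 after quantile normalization and 0.41 after cyclic loess. The dim probe set 161278_r_at read 4.60 to 4.64 on the Flox arrays and 4.61, 5.74 and 5.53 on LIRKO 1, 2 and 3. Its difference was 0.67 (SE 0.284, adjusted p = 0.239 by limma) and -0.01 on LIRKO 1, and beyond probe sets of like level it was 0.01, 0.88 and 0.73.

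*Slc1a2* encodes a glutamate transporter of the plasma membrane that pericentral hepatocytes share with astrocytes. It read 8.08 to 8.09 on the Flox arrays and 8.01, 7.88 and 8.18 on LIRKO 1, 2 and 3, on both sides of the Flox values. The difference was -0.06 (SE 0.122, 95% interval -0.35 to 0.23, adjusted p = 0.752 by limma), with -0.08 on LIRKO 1, and its sign turned under quantile normalization (0.08) and cyclic loess (0.10). Beyond probe sets of like level it was -0.06, 0.10 and 0.29. *Rgn* encodes regucalcin, a calcium-binding lactonase of the liver. It read 11.72, 11.79 and 11.82 on the Flox arrays and 11.72, 10.37 and 10.60 on LIRKO 1, 2 and 3, so LIRKO 1 was within the Flox range. The difference was -0.88 (SE 0.336, 95% interval -1.68 to -0.08, adjusted p = 0.237 by limma), with -0.06 on LIRKO 1. Probe sets of like level had medians of 0.02, -1.56 and -1.38 on LIRKO 1, 2 and 3, and *Rgn* lay -0.08, 0.15 and 0.21 from them. Its difference came to -0.19 after quantile normalization and -0.09 after cyclic loess.

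*Axin2* and *Tbx3* are the β-catenin targets among the 9 that act inside the pathway or in the nucleus. *Axin2* encodes a scaffold of the complex that destroys β-catenin, and as a target gene it feeds back on the pathway. It read 6.24, 6.43 and 6.09 on the Flox arrays and 6.30, 6.86 and 6.27 on LIRKO 1, 2 and 3, with only LIRKO 2 above the Flox range. The difference was 0.22 (SE 0.194, 95% interval -0.24 to 0.68, adjusted p = 0.474 by limma), with 0.04 on LIRKO 1, and beyond probe sets of like level it was 0.06, 0.42 and -0.11. *Tbx3*, a T-box transcription factor, read 5.03, 5.09 and 4.97 on the Flox arrays and 4.89, 5.06 and 4.91 on LIRKO 1, 2 and 3. The difference was -0.08 (SE 0.113, 95% interval -0.35 to 0.19, adjusted p = 0.670 by limma), with -0.14 on LIRKO 1, and beyond probe sets of like level it was -0.09, -0.10 and -0.20.

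**Figure D3:**
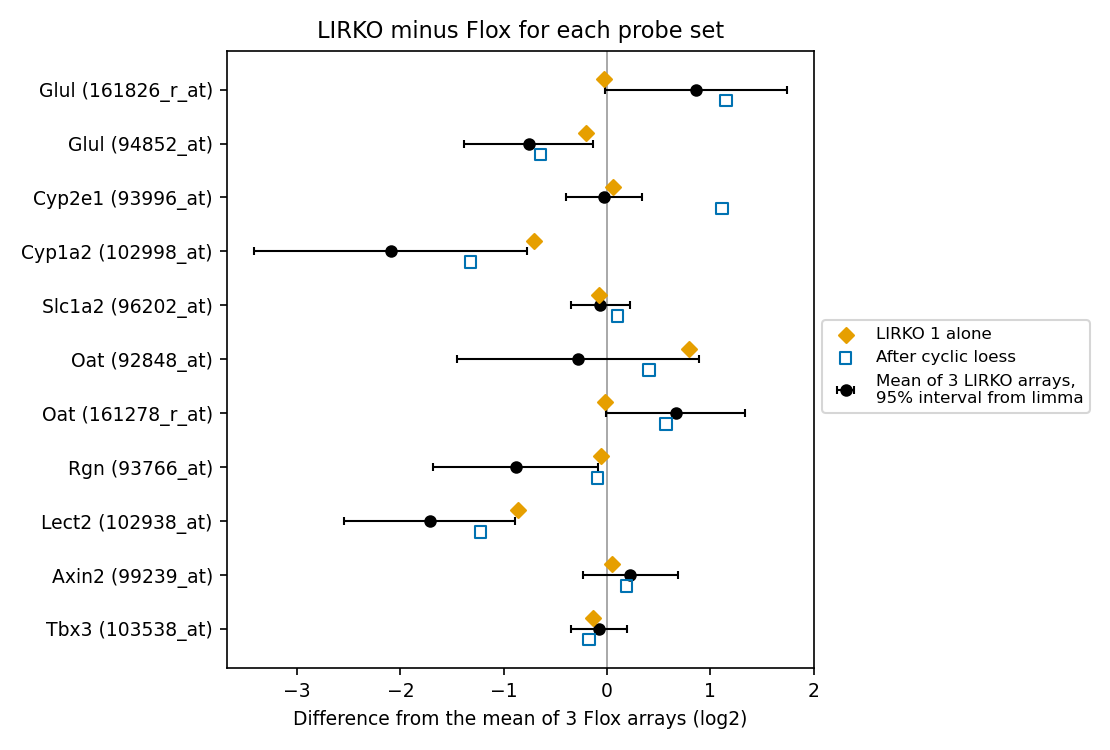
LIRKO minus Flox (x axis, log2) for each of the 11 probe sets (y axis). Black points are the means of 3 LIRKO arrays with the 95% interval from limma, diamonds are LIRKO 1 alone, and squares are the means after cyclic loess. *Lect2* and *Cyp1a2* lie below 0 in each of these, whereas *Cyp2e1*, *Slc1a2* and *Oat* 92848_at turn sign under cyclic loess and *Glul* lies on both sides.

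LIRKO 1, whose bright and dim probe sets sat near the Flox arrays, was outside the Flox range for 7 of the 11 probe sets, 2 above and 5 below. Of all probe sets 55.6% were, with 24.7% above and 30.9% below. Without LIRKO 1, 5 of the 11 passed the threshold as lower and 2 as higher, where 26.7% and 22.4% of all probe sets did (49.1% in all). The lower ones without LIRKO 1 were *Cyp1a2* (-2.79, adjusted p = 4.67e-06 by limma), *Lect2* (-2.15, adjusted p = 3.91e-06), *Rgn* (-1.29, adjusted p = 3.41e-05), *Glul* 94852_at (-1.03, adjusted p = 5.71e-04) and *Oat* 92848_at (-0.82, adjusted p = 0.0277). The higher ones were the _r_at probe sets of *Glul* (1.31) and *Oat* (1.01). Beyond probe sets of like level, 4 of the 11 were lower on all 3 LIRKO arrays (*Lect2*, *Cyp1a2*, *Glul* 94852_at and *Tbx3*) and 3 were higher (*Cyp2e1* and both of *Oat*), where 24.7% and 24.4% of all probe sets were. With the 40 nearest probe sets, 4 were lower and 4 higher, *Glul* 161826_r_at being added, where 24.7% and 24.6% of all were.

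Of 30 other pericentral genes listed, 14 were measured, each read by its brightest probe set, and 0 passed the threshold in either direction, where 0.121% of 8251 genes did (0.0606% each way). Their differences were above 0 for 6 and below 0 for 8, with a median of -0.16, which turned to 0.18 after quantile normalization and 0.40 after cyclic loess. The median over all 8251 genes was -0.01. By smallest p they were led by *Cyp2c29*, a cytochrome P450 of arachidonic acid and drug oxidation. It read 8.35, 8.27 and 8.58 on the Flox arrays and 8.98, 9.04 and 9.75 on LIRKO 1, 2 and 3 (difference 0.86, SE 0.226, adjusted p = 0.237 by limma). Every LIRKO array was above every Flox array, as for 9.84% of all probe sets. *Aldh1a1*, which oxidizes retinaldehyde, followed with 12.40, 12.50 and 12.44 on the Flox arrays and 11.79, 9.28 and 9.65 on LIRKO 1, 2 and 3. Its difference was -2.21 (SE 0.608, adjusted p = 0.237 by limma), while a dimmer probe set of the gene differed by 0.37. The next were the glutathione transferases *Gstm2* (1.07 by an _r_at probe set, -0.27 by its other one) and *Gsta3* (-1.09), and the phosphatase gene *Lhpp* (0.32). Probe sets of *Cyp2c* and *Gstm* genes may read near-identical family members.

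Periportal genes mark the other end of the lobule. Of 22 listed, 17 were measured and 0 passed the threshold, where 0.121% of all 8251 genes did. They were above 0 for 3 and below 0 for 14, with a median of -0.46 that shrank to -0.01 after quantile normalization and turned to 0.12 after cyclic loess. On LIRKO 1 the median was 0.20, with 11 above 0 and 6 below, beside 0.17 for the 14 other pericentral genes and -0.06 for the 9. On LIRKO 2 and LIRKO 3 the periportal medians were -0.74 and -0.46, beside -0.31 and -0.01 for the 14 and -0.32 and -0.12 for the 9. Among the 9, *Glul* was read by 161826_r_at. Lists without _r_at probe sets, chosen after the data were seen, had median differences of -0.28 for the 9 and -0.27 for the 14. That of the periportal genes was -0.46. A difference between the 2 ends of the lobule was not tested. *Apoa4*, an apolipoprotein of lipid absorption and plasma lipoproteins, read 9.57, 8.93 and 9.33 on the Flox arrays and 8.29, 7.44 and 7.37 on LIRKO 1, 2 and 3 (difference -1.58, SE 0.287, adjusted p = 0.237 by limma). *Cyp2f2*, a cytochrome P450 that marks periportal hepatocytes, read 12.09, 11.99 and 12.17 on the Flox arrays and 11.52, 9.57 and 9.85 on LIRKO 1, 2 and 3 (difference -1.77, SE 0.479, adjusted p = 0.237 by limma). Both were below every Flox array on every LIRKO array, as *Cyp1a2*, *Lect2* and 14.9% of all probe sets were. Their Flox levels, 9.28 for *Apoa4* and 12.08 for *Cyp2f2*, were in the brightest bin, with medians of -0.01, -1.09 and -0.89 on LIRKO 1, 2 and 3. Next by p were *Hal*, of histidine breakdown (-1.17), *Arg1*, the last enzyme of the urea cycle (-0.82), and *Pigr*, the polymeric immunoglobulin receptor (-1.21). *Arg1* and *Alb* also lay wholly below Flox. *Cdh1* and *Cyp17a1* lay wholly above, as 9.84% of all probe sets did. On LIRKO 1 alone, *Cyp17a1*, a steroid hydroxylase, was higher by 1.08.

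**Figure D4:**
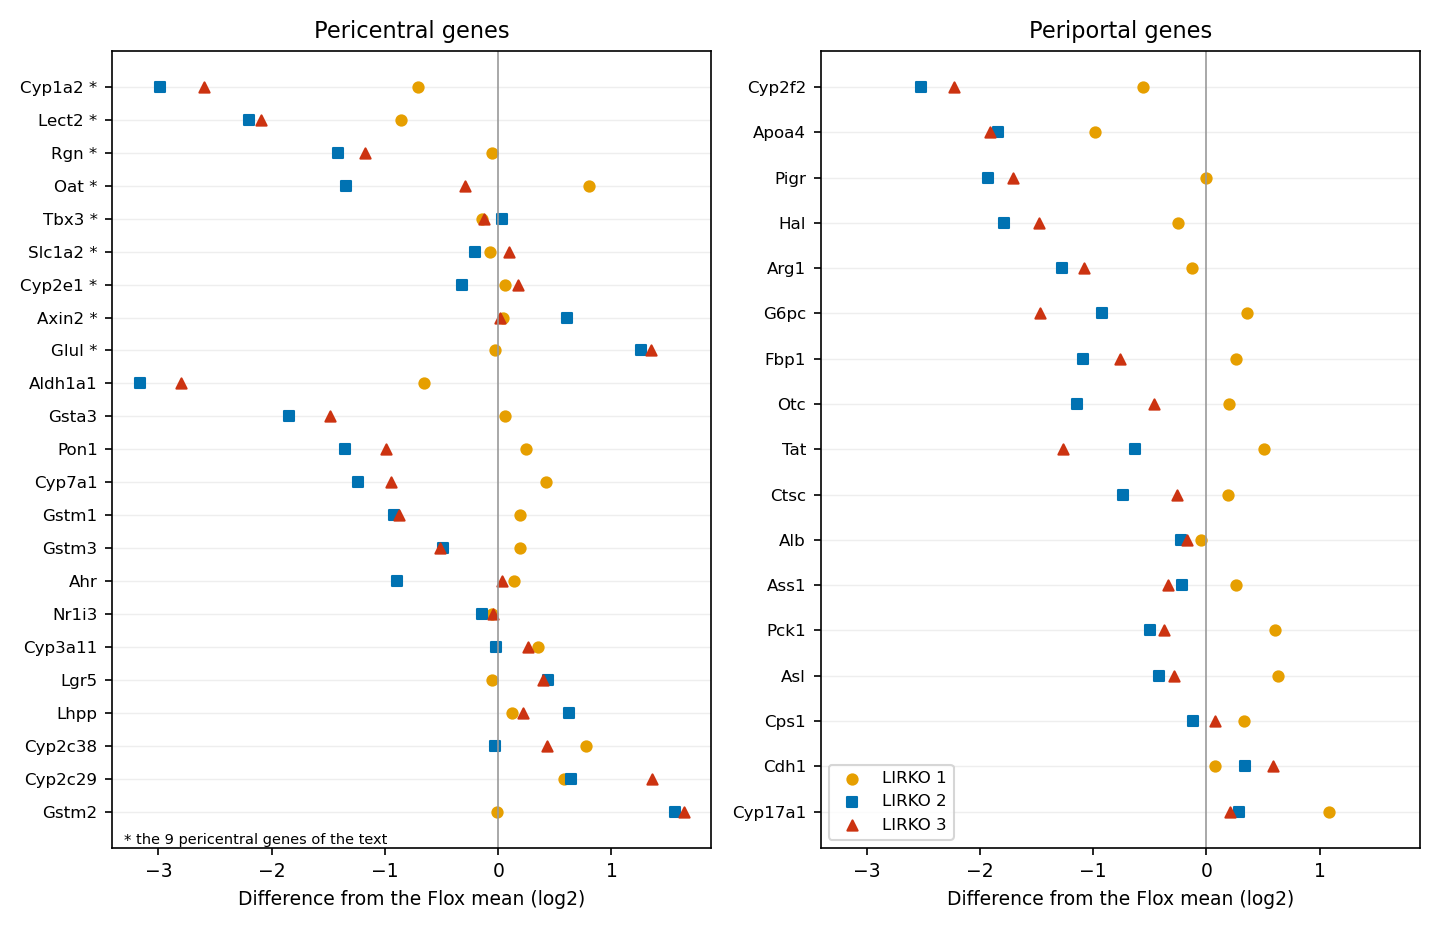
Difference from the Flox mean (x axis, log2) on LIRKO 1, LIRKO 2 and LIRKO 3 for the 9 pericentral genes (starred) and 14 other pericentral genes (left) and for 17 periportal genes (right), each by its brightest probe set. For *Glul*, *Gstm2* and *Nr1i3* this is an _r_at probe set. Genes of both kinds lie on both sides of 0, the periportal median of -0.46 turns to 0.12 after cyclic loess, and LIRKO 1 lies nearer to 0 than the other LIRKO arrays for most genes.

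The Wnt and β-catenin pathway, which maintains the pericentral programme, showed no gene past the threshold among 36 measured of 50 listed. Of all 8251 genes 0.121% passed. Listed genes that were not measured include *Wnt2*, *Wnt9b*, *Rspo3*, *Rnf43*, *Znrf3*, *Nkd1*, *Sp5* and *Notum*, so the list does not show the state of the whole pathway. The differences were above 0 for 19 and below 0 for 17, with a median of 0.00. Smallest in p were *Tcf7l1*, a TCF factor (0.48), the cell cycle gene *Ccnd1* (0.68), *Pygo2*, a coactivator of β-catenin (0.58), *Btrc*, which targets β-catenin for degradation (-0.44), and the Wnt receptor *Fzd8* (-0.29). Each had an adjusted p of 0.237 by limma. On LIRKO 1 alone *Ccnd1* differed by 1.08, and its other probe set differed by 0.13 there. *Ctnnb1*, β-catenin itself, named here outside the rule for its place in the pathway, differed by -0.60 (adjusted p = 0.258 by limma) and by 0.01 on LIRKO 1.

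Glutamate and ornithine metabolism, to which *Glul*, *Slc1a2* and *Oat* belong, had 16 of 24 other genes measured. Of these 0 passed the threshold, where 0.121% of all 8251 genes did. The 16 were above 0 for 7 and below 0 for 9, with a median of -0.25 that came to -0.05 after quantile normalization and -0.02 after cyclic loess. *Gclc*, of glutathione synthesis, was lower on all 3 LIRKO arrays by a similar amount (-0.41, -0.59 and -0.44, difference -0.48, SE 0.122, adjusted p = 0.237 by limma). Its Flox level of 9.48 was in the brightest bin of probe sets, whose medians were -0.01, -1.09 and -0.89 on LIRKO 1, 2 and 3. On LIRKO 2 and LIRKO 3 it was therefore not below that bin. *Aldh18a1*, of proline and ornithine synthesis, differed by -0.48 (0.20 by its other probe set), *Glud1*, glutamate dehydrogenase, by -0.97, and the amino acid transporter *Slc38a2* by 0.89. *Arg1*, also on this list, was given above.

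The AhR pathway, which induces *Cyp1a2*, had 8 of 12 listed genes measured and 0 past the threshold, where 0.121% of all 8251 genes passed. The 8 were above 0 for 5 and below 0 for 3, with a median of 0.19. The median came to 0.10 after quantile normalization or cyclic loess, 0.06 without LIRKO 2 and 0.01 with dim probe sets left out. *Cyp1a1*, the sister gene of *Cyp1a2* and the best known AhR target, was higher by 0.27 (SE 0.107, adjusted p = 0.237 by limma). On LIRKO 1, 2 and 3 it differed by 0.19, 0.30 and 0.31, the opposite sign to *Cyp1a2*. It was dim, with a Flox level of 5.52, in a bin with medians of -0.03, 0.18 and 0.12 on these arrays. *Cyp1a2* was in the brightest bin, with medians of -0.01, -1.09 and -0.89. The 200 probe sets nearest to its own level had medians of -0.0049, -1.53 and -1.33. A part of AhR in these values was not tested. *Tiparp*, another AhR target, differed by 0.33, *Nqo1*, a quinone reductase, by 0.28, *Nfe2l2*, the oxidative stress factor, by -0.64, and *Arnt*, the partner of AhR, by -0.45 (0.18 by its other probe set).

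Markers of cell types in the liver were followed on the same arrays. All 10 measured of 12 hepatocyte markers were below 0, with a median of -0.70 that came to -0.15 (7 below 0) after quantile normalization and -0.01 (5 below 0) after cyclic loess. Their mean level ran from 12.26 to 12.35 on the Flox arrays and from 10.99 to 12.21 on the LIRKO arrays, and on LIRKO 1 their median difference was -0.07. *Alb*, the defining marker, was at 14.22 in Flox and 14.07 in LIRKO. The mean level of 11 liver endothelial markers was 6.67 to 7.06 in Flox and 6.82 to 7.08 in LIRKO, of 9 Kupffer cell and macrophage markers 7.53 to 8.28 and 7.33 to 8.38, and of 10 stellate cell and fibroblast markers 7.03 to 7.34 and 7.22 to 7.71. That of 6 cholangiocyte markers was 5.64 to 5.78 and 5.57 to 6.13, and that of 8 blood cell markers 7.36 to 7.49 and 7.02 to 7.35. Of the 6 lists, hepatocyte and blood cell markers were the ones whose mean levels did not overlap between groups. The gaps were narrow, 12.21 against 12.26 and 7.35 against 7.36. Among single probe sets, 24.7% of all had groups that did not overlap. Blood cell markers were mixed, with 3 above 0 and 5 below, from *Alas2* (-1.79) to *Cd3e* (0.44). The part of cell types in the values of the pericentral genes was not tested.

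Genes with the most similar pattern over the 6 arrays were found by Pearson's r, as a description. For *Cyp2e1* they were *Golga7* (r = 0.993), *Arid2* (r = 0.986) and *Ythdf3* (r = 0.985), and 77 of 8242 genes had an r over 0.9. For *Cyp1a2* they were *Adipor2* (r = 0.9996), *Lasp1* (r = 0.9994) and *Rnpepl1* (r = 0.9993), with 1865 genes over 0.9. For *Glul* 161826_r_at they were *Trav9d-3* (r = 0.9986), *Terf1* (r = 0.998) and *Frat2* (r = 0.998), with 1208 genes over 0.9. The patterns of *Cyp1a2* and *Glul* set LIRKO 2 and LIRKO 3 apart from the other 4 arrays, which many genes shared with them, whereas that of *Cyp2e1* did not.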

How the data were processed

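Liver RNA (RNeasy) of 3 Flox and 3 LIRKO pools was measured, 1 pool to an Affymetrix MG-U74A-v2 array. The authors processed the scans in R with affy and limma and deposited 1 log2 RMA value per probe set and array. RMA corrects background, normalizes between arrays and summarizes oligonucleotides. It is unknown here if RMA was run on the 6 arrays jointly. No scans were used, so those steps were not repeated and no array is known by signal over background.

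The deposited log2 values were taken as they are. Of 12488 probe sets, 66 array controls were left out, with no filter on dim signals. The 2 groups were compared in R 4.3.3 with limma 3.58.1 (lmFit, then eBayes), two-sided, with Benjamini-Hochberg adjustment over 12422 probe sets and a threshold of 0.05, as in the methods. Symbols came from the platform annotation: 10833 probe sets carried 1 symbol (10817 found by Entrez ID), 396 several and 1193 none. Lists read each of 8251 genes by its brightest probe set over the 6 arrays. The fit on LIRKO 1 alone assumes that it varies like the Flox arrays.

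The genes and lists were chosen with earlier results of these data known. Named were the 9 genes with every probe set, per list up to 5 genes by smallest p after any past the threshold, and per pattern 3 genes by r. The test was tried on simulated data first. Promoters came from RefSeq (GRCm38.p6). Python 3.11.15, numpy 2.4.6, pandas 2.3.3 and matplotlib 3.10.9 were used for sequences and figures. Alternatives were 2 normalizations, a filter at the 25th percentile, array weights, eBayes with a trend, Bonferroni adjustment, the methods' t-test, the replicate block, averaging the probe sets of a gene and leaving out arrays.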

Additional observations from a re-analysis of the deposited data

How the results depend on the processing

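The differences of *Lect2* and *Cyp1a2* stayed below 0 under every alternative run, *Lect2* from -2.15 to -0.86 and *Cyp1a2* from -2.79 to -0.70. As every LIRKO array lay below every Flox array for both genes, leaving out or weighting arrays could not turn the sign. The filter, the trend, the t-test, Bonferroni adjustment and the replicate block leave the difference itself as it is. *Axin2* (0.0087 to 0.33) and *Tbx3* (-0.17 to -0.046) kept their sign as well. The *Lect2* difference was -1.22 after cyclic loess (adjusted p = 0.05004 by limma, just over the threshold). Direction turned for *Cyp2e1* (0.48 after quantile normalization, 1.12 after cyclic loess, 0.14 with array weights, 0.061 on LIRKO 1 alone, and -0.13 to 0.12 on leaving out each array in turn), *Slc1a2* (0.084, 0.10 and 0.085 under the first 3 of these, and -0.14 to 0.0094 on leaving out each array) and *Oat* 92848_at (0.28, 0.41, 0.80 on LIRKO 1 alone, 0.19 by the mean of its probe sets, and -0.82 to 0.25 on leaving out each array). It also turned for *Glul* 161826_r_at (-0.029) and *Oat* 161278_r_at (-0.015) on LIRKO 1 alone and for *Glul* 94852_at by the mean of its probe sets (0.052). The causes were not tested.

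Array weights called 7 of the 11 probe sets and 8694 of all, and LIRKO 1 alone called 1 and 90. Of all probe sets 16 passed, against 40 after cyclic loess, 2 with Bonferroni adjustment, 0 by the methods' t-test (728 at an unadjusted p under 0.05) and 2 to 6095 on leaving out each array. Leaving out each array called 0 to 7 of the 11, and the 7 came without LIRKO 1. With array weights, 12 of 14 other pericentral genes, 15 of 17 periportal genes and 24 of 36 of the Wnt and β-catenin pathway were called. Of glutamate and ornithine metabolism 13 of 16 were called so, and of the AhR pathway 5 of 8, beside 8694 of all 12422 probe sets. On leaving out each array these lists had 0 to 10, 0 to 11, 0 to 13, 0 to 10 and 0 to 5, in the same order. The highest of each range came without LIRKO 1, where 49.1% of all probe sets were called.

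The replicate block called 0 of the 11 and 11 of all probe sets. Deviations of same-numbered arrays correlated at 0.321, 0.399 and 0.092, and those of differently numbered arrays at -0.369 to 0.166. The labels give no pairing of arrays, and whether the numbers pair them is unknown here. The comparison with probe sets of like level (200 or 40) and the lists without _r_at probe sets, where the median of the 9 genes came to -0.28, were chosen after seeing the data. Less the median of like probe sets, the mean difference of *Rgn* came to 0.092 with 200 and 0.18 with 40.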
